A study of Mus musculus with 4 samples.

Results

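The astrocyte endfoot and gap junction genes were 7 genes, chosen by symbol from the 32285 genes of each deposited matrix: Aqp4, Gja1, Gjb6, Dag1, Dtna, Mlc1 and Hepacam. All 7 were found in each of the 4 matrices. Wild-type mice gave the hippocampus and sensory cortex cells whose RNA was counted by droplet single-cell sequencing, with 1 library for each tissue and treatment. The libraries were titled DOCA-salt or sham in hippocampus and likewise in cortex. DOCA-salt combines deoxycorticosterone acetate, a mineralocorticoid, with salt and raises blood pressure in rodents; sham mice are its controls. All groups carried the wild-type genotype, and the labels give neither the age nor the length of the treatment. The labels name 3 mice per group and do not state whether their cells were pooled into 1 library. For one library of each tissue (titled sham in hippocampus, DOCA-salt in cortex) the treatment field of the labels goes against the title, so every treatment direction given here rests on the titles. With 1 library per group no test was made and no p-value was computed.

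Astrocytes wrap the brain's vessels with endfeet. Aquaporin-4, the water channel encoded by Aqp4, is held there by the dystrophin complex, in which dystroglycan (Dag1) links the basement membrane to alpha-dystrobrevin (Dtna) and the syntrophins. Connexin 43 (Gja1) and connexin 30 (Gjb6) form the channels of the gap junctions that couple astrocytes to each other. MLC1 and GlialCAM (Hepacam) form a membrane complex at astrocyte contacts and endfeet that takes part in ion and water balance.

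Promoters of 300 bases (250 before and 50 after the start) were matched for 5 of the 7 genes in RefSeq for GRCm38.p6. Shown are those of the connexin pair, whose RNA was mostly counted in astrocyte-like cells, and of Dag1 and Hepacam, whose RNA was found most widely outside them. Capitals mark matches on either strand to the NFI half-site TTGGC, the STAT site TTCNNNGAA or the steroid receptor half-site AGAACA.
Gja1 (chr10:56377050-56377349, plus strand): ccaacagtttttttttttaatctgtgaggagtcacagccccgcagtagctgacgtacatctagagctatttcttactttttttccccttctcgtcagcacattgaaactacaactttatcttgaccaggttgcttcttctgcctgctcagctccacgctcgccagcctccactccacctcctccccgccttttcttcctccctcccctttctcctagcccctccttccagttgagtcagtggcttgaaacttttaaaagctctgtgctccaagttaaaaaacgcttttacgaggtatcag
Gjb6 (chr14:57133562-57133861, minus strand): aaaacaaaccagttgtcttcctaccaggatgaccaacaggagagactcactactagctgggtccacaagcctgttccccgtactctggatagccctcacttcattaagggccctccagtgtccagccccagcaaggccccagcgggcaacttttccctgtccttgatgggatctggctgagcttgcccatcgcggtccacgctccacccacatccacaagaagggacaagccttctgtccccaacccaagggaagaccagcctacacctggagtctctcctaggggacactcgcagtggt
Dag1 (chr9:108263909-108264208, minus strand, the first of 2 entries): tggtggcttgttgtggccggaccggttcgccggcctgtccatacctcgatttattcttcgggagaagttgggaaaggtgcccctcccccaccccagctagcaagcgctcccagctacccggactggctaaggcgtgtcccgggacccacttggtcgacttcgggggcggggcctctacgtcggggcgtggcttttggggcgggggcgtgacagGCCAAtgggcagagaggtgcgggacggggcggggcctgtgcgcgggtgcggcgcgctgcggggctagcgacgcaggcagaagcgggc
Hepacam (chr9:37367356-37367655, plus strand): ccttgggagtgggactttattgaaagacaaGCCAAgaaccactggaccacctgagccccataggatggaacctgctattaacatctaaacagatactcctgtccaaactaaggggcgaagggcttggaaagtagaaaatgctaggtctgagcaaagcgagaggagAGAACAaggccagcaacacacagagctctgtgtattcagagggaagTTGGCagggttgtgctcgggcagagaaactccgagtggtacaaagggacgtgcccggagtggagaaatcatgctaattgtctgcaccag

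Among all 32851 promoters of that length, 46.7% held at least 1 match to the NFI half-site, 8.30% to the STAT site and 19.0% to the steroid receptor half-site. The Gja1 and Gjb6 windows held none of these motifs. The Dag1 window held 1 NFI half-site, and the Hepacam window held 2 NFI half-sites and 1 steroid receptor half-site. The Mlc1 window, not printed, held 1 NFI half-site. No 2 of these matches overlapped. The Dag1 window stood apart in base composition, at 69.7% GC with 30 CpG dinucleotides, against medians of 52.7% and 7 over all promoters; its GC was at or above that of 90.4% of them. The other 4 windows held between 3 and 8 CpG dinucleotides.

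The genes lie on 5 chromosomes in the build GRCm38. Gja1 lies at chr10:56377330-56402513 on the plus strand and Gjb6 at chr14:57123303-57133611 on the minus strand. Dag1 lies at chr9:108204634-108263958 on the minus strand and Hepacam on the plus strand of the same chromosome, at chr9:37367351-37386575. Mlc1 lies at chr15:88955884-88979007 on the minus strand. The promoter windows of Hepacam and Mlc1 lie wholly inside these spans, since their RefSeq starts lie downstream of the gene starts given here. Aqp4 and Dtna are both on chromosome 18, and each overlaps an annotated antisense gene, AC133525.2 and Gm47898. The counting strand is not given in the sources used here. Whether reads of the stretches that Aqp4 and Dtna share with their antisense partners were assigned by strand is thus not known. The partners themselves were counted at 186 UMIs for AC133525.2 and 5 UMIs for Gm47898 over all astrocyte-like cells.

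The matrices held 11159 to 11402 barcodes and 66824217 to 70173987 UMIs (unique molecular identifiers, each standing for 1 captured RNA molecule) per library, and 10349 to 10761 cells were kept. Pairs of libraries shared 81 to 96 cell barcodes, at most 0.892% of a library. Cells were clustered without the 7 genes and named from marker lists that hold none of them. Astrocyte-like cells numbered 2054 (19.1% of cells) in hippocampus DOCA-salt, 978 (9.18%) in hippocampus sham, 4052 (37.7%) in cortex DOCA-salt and 3352 (32.4%) in cortex sham. All 12 astrocyte markers were detected in them in every library, and their summed level is given in CPM (a gene's UMIs summed over the cells, scaled to a common total of UMIs). It was 31318 CPM in DOCA-salt and 28783 CPM in sham of hippocampus, and 36485 CPM in DOCA-salt and 36645 CPM in sham of cortex. Each hippocampus library stood apart in another way. Hippocampus sham astrocyte-like cells carried choroid plexus markers at 4054 CPM, against 16.4 to 32.1 CPM in the other libraries, and oligodendrocyte markers at 5493 CPM, against 2842 CPM in hippocampus DOCA-salt. Hippocampus DOCA-salt held the largest share of a shallow cluster led by Mt3, Hopx and Baalc, at 28.7% of its astrocyte-like cells and a median of 881 UMIs, against 19.6% in hippocampus sham and 10.98% and 11.99% in the cortex libraries. All intervals below are 95% intervals of counting error; they take each UMI as independent and hold neither the spread between cells nor that between animals.

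Aqp4, the water channel gene, stood highest in cortex. Its level in astrocyte-like cells was 679 CPM in hippocampus DOCA-salt, 690.1 in hippocampus sham, 802 in cortex DOCA-salt and 1000.2 in cortex sham. The hippocampus libraries lay within counting error of each other, while the cortex libraries lay apart and above both. With each cell thinned to 2000 UMIs, the share of these cells with an Aqp4 UMI was 65.4% in DOCA-salt and 65.2% in sham of hippocampus, and 75.5% in DOCA-salt and 83.3% in sham of cortex.

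The connexin genes did not share one pattern over the 4 libraries. Gja1, for connexin 43, stood at 1741 CPM in DOCA-salt and 1719 CPM in sham of hippocampus, and 1986 CPM in DOCA-salt and 2337 CPM in sham of cortex. After thinning it was found in 89.1% to 97.2% of astrocyte-like cells, with the cortex libraries above the hippocampus ones. Gjb6, for connexin 30, stood at 619 CPM in DOCA-salt and 789.6 CPM in sham of hippocampus, and 585 CPM in DOCA-salt and 763 CPM in sham of cortex, so that the sham library was the higher one in each tissue. Gja1, like Aqp4, stood higher in cortex than in hippocampus under both titles, and in cortex higher in sham than in DOCA-salt. Over all astrocyte-like cells Gjb6 differed more between the titles than between the tissues.

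The dystroglycan gene Dag1 varied least in relative range among the 7, at 184 CPM in DOCA-salt and 181 CPM in sham of hippocampus, and 205 CPM in DOCA-salt and 198 CPM in sham of cortex. Its partner Dtna stood at 653 CPM in DOCA-salt and 731 CPM in sham of hippocampus, and 595 CPM in DOCA-salt and 629 CPM in sham of cortex. It was the one gene of the 7, beside Gjb6, with a higher level in hippocampus than in cortex under both titles. Mlc1 stood at 538 CPM in DOCA-salt and 484 CPM in sham of hippocampus, and 559 CPM in DOCA-salt and 559 CPM in sham of cortex. Hepacam, for GlialCAM, stood at 552 CPM in DOCA-salt and 552 CPM in sham of hippocampus, and 621 CPM in DOCA-salt and 655 CPM in sham of cortex, so that both genes lay higher in cortex than in hippocampus under either title. The 7 genes together made up 4966 to 6141 CPM of astrocyte-like RNA. UMI counts of this 3′ assay were not scaled by length, and which of the 7 genes is expressed most was not asked.

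**Figure D1:**
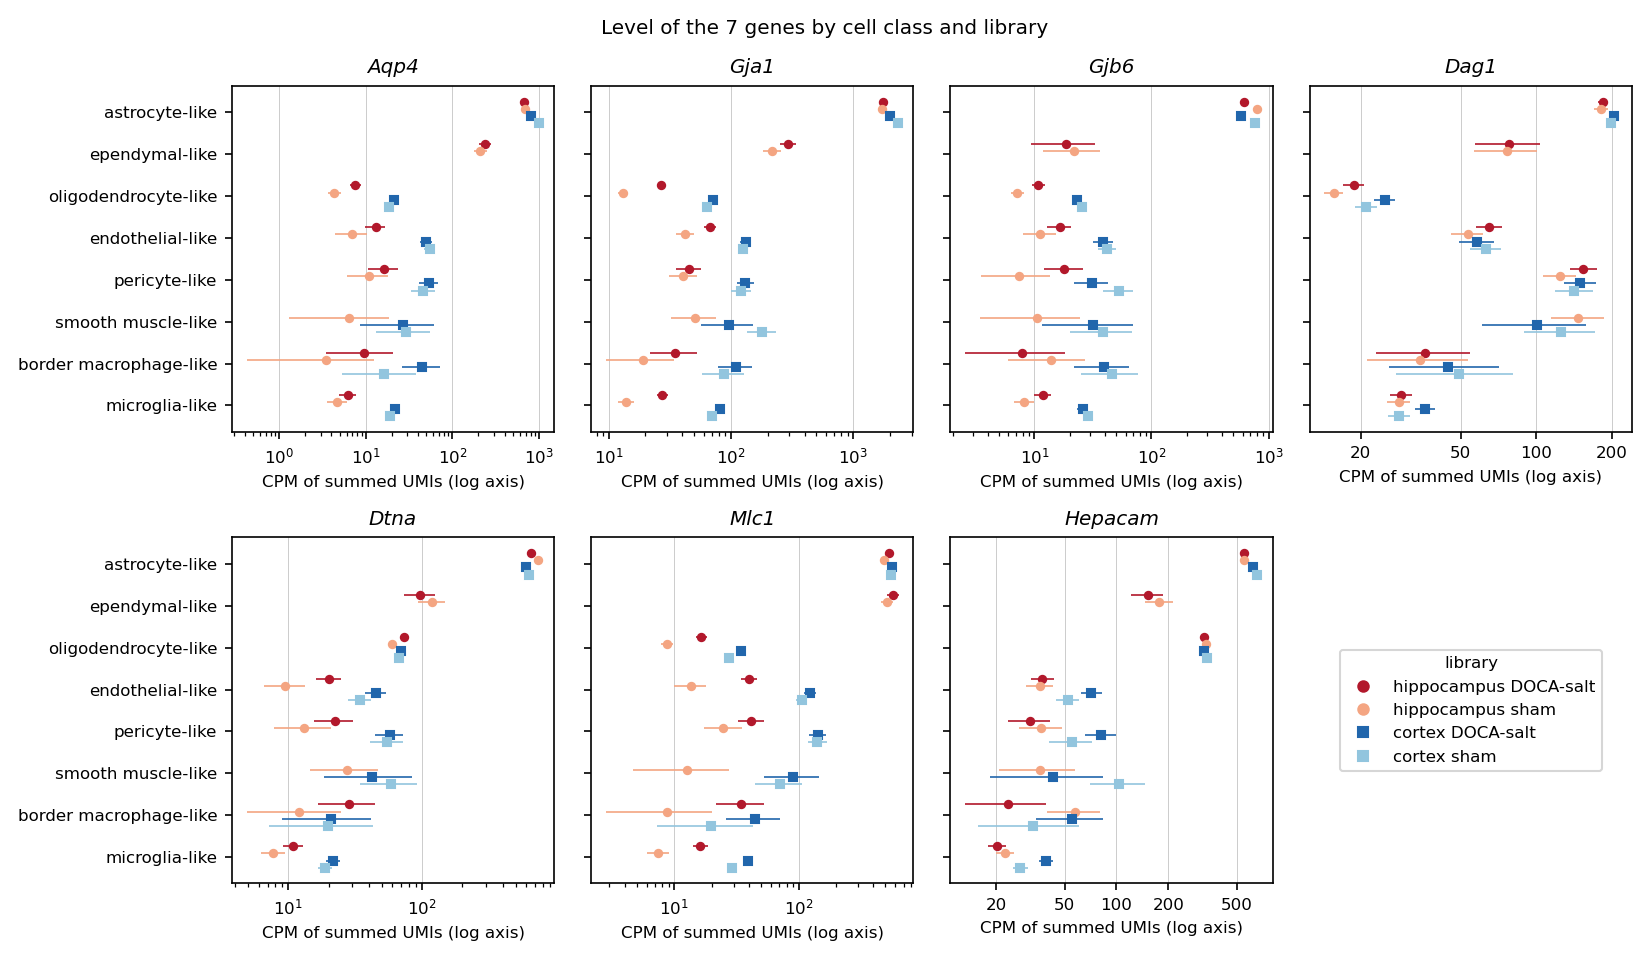
Level of each of the 7 genes (horizontal axis, CPM of summed UMIs, log scale) in the named cell classes (rows) and the 4 libraries (colours and shapes); lines are 95% intervals of counting error. Aqp4, Gja1 and Gjb6 stand highest in astrocyte-like cells in every library, Mlc1 reaches 576 and 519 CPM in ependymal-like cells, and Hepacam stays between 322 and 337 CPM in oligodendrocyte-like cells.

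The first comparison asked how the genes differed between DOCA-salt and sham astrocyte-like cells of the same tissue. None of the 7 differed by more than 1.5-fold in hippocampus, where 13.2% of 13896 genes did, and none in cortex, where 11.8% of 15451 genes did (genes with at least 20 UMIs in both libraries together). The smaller differences were largest for Gjb6, which was lower in the DOCA-salt library of both tissues, and for Aqp4 and Gja1, which were lower in the DOCA-salt library of cortex and within counting error of sham in hippocampus.

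Gjb6 stood at 619 CPM in hippocampus DOCA-salt against 789.6 CPM in hippocampus sham, a ratio of 0.784 (0.754 to 0.816). In cortex it stood at 585 CPM in DOCA-salt against 763 CPM in sham, a ratio of 0.767 (0.7498 to 0.784). Over 11 other ways of processing the ratio kept between 0.745 and 0.829 in hippocampus and between 0.742 and 0.776 in cortex. It was 0.784 and 0.763 without the shallow cluster. The number of Gjb6 UMIs per 100 Gja1 UMIs, which does not depend on the scaling of the library, was 35.6 (34.6 to 36.6) in hippocampus DOCA-salt against 45.9 (44.3 to 47.7) in hippocampus sham. In cortex it was 29.5 (28.9 to 30.04) in DOCA-salt against 32.7 (32.1 to 33.2) in sham. Over all astrocyte-like cells the balance of the connexins thus lay lower in the DOCA-salt library of either tissue.

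Aqp4 stood in cortex at 802 CPM in DOCA-salt against 1000.2 CPM in sham, a ratio of 0.802 (0.787 to 0.818). In hippocampus the ratio was 0.984 (0.946 to 1.02). The hippocampal ratio was 1.23 times the cortical one (1.17 to 1.28). Gja1 showed the same contrast, with a ratio of 0.850 (0.839 to 0.860) in cortex and 1.01 (0.988 to 1.04) in hippocampus, the hippocampal one 1.19 times the cortical one (1.16 to 1.23). For Gjb6 that quotient was 1.02 (0.978 to 1.07). These quotients compare 4 libraries and are no test of the treatment.

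The remaining genes lay closer to 1. Dtna had ratios of 0.893 (0.858 to 0.929) in hippocampus and 0.945 (0.923 to 0.967) in cortex. Dag1 had ratios of 1.02 (0.943 to 1.10) and 1.03 (0.993 to 1.08), both within counting error of 1. Its ratio under 11 other ways of processing lay between 0.941 and 1.23 in hippocampus and between 1.01 and 1.08 in cortex. Mlc1 was higher in the hippocampus DOCA-salt library, at a ratio of 1.11 (1.06 to 1.17), and level in cortex, at 1.002 (0.977 to 1.03). Hepacam was level in hippocampus, at 1.0002 (0.956 to 1.05), and slightly lower in cortex DOCA-salt, at 0.948 (0.926 to 0.970). On the log2 scale the median difference of the 7 genes was 0.00024 in hippocampus and -0.08 in cortex, against 0.03 and 0.04 over all genes compared. Oligodendrocyte markers in the same astrocyte-like cells summed to 2842 CPM in hippocampus DOCA-salt against 5493 CPM in hippocampus sham, and to 2084 CPM in cortex DOCA-salt against 2609 CPM in cortex sham. Their part in these ratios was not tested.

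**Figure D2:**
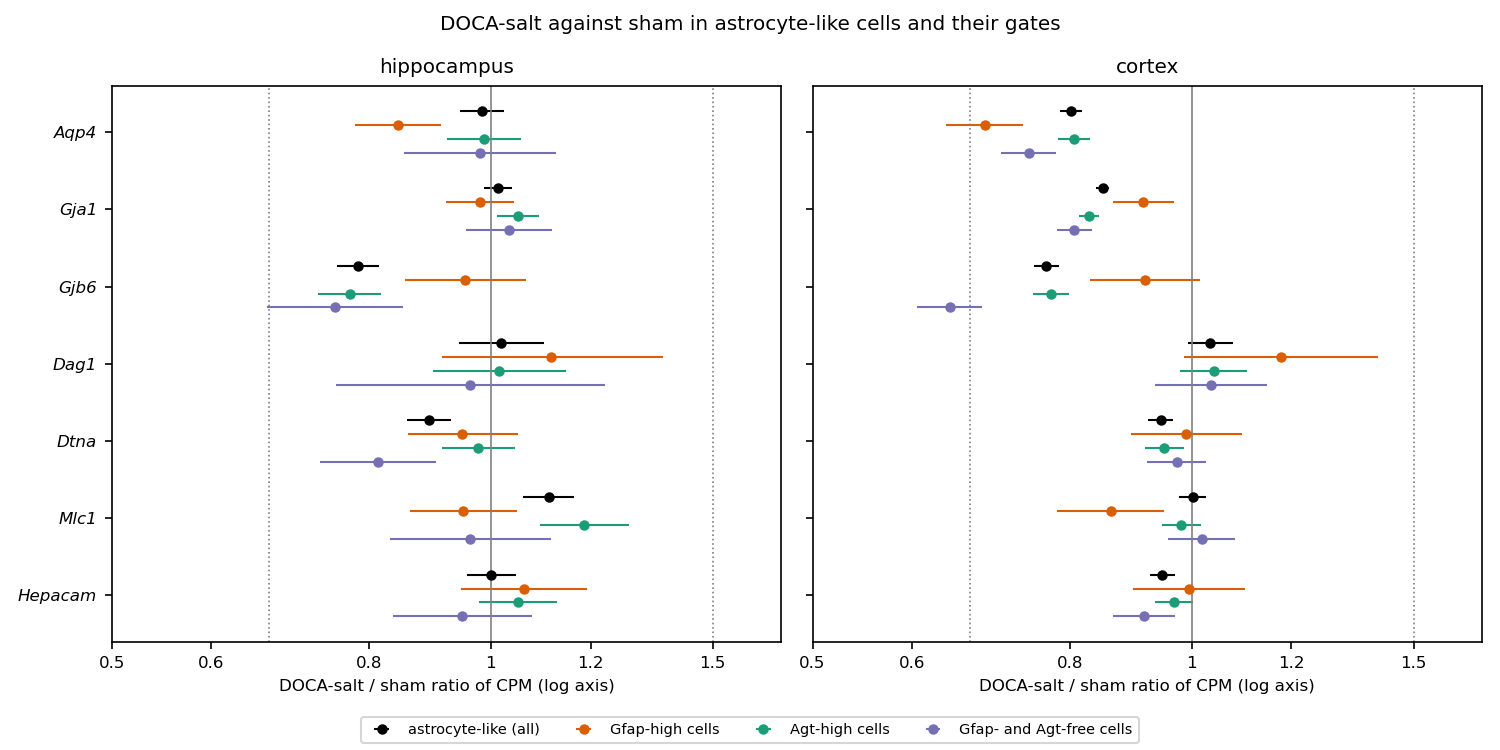
Ratio of the CPM level in DOCA-salt to that in sham (horizontal axis, log scale) for the 7 genes in hippocampus (left panel) and cortex (right panel), for all astrocyte-like cells and their 3 gates (colours); lines are 95% intervals of counting error, and dotted lines mark 1.5-fold. Gjb6 lies at 0.784 and 0.767 for all astrocyte-like cells, and Aqp4 and Gja1 lie below 1 in cortex, at 0.802 and 0.850.

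Astrocyte-like cells were then split by gates on 2 genes outside the set. Gfap encodes the intermediate filament of fibrous and reactive astrocytes, and Agt encodes angiotensinogen. Gfap-high cells held at least 3 Gfap UMIs, Agt-high cells at least 2 Agt UMIs and at most 1 Gfap UMI, and free cells 0 of both. These gates are ranges and not cell types. In hippocampus DOCA-salt, 7.98% of astrocyte-like cells lay 1 UMI below the Gfap gate and 4.43% exactly at it, and 13.05% and 8.57% lay at those places of the Agt gate. Gfap-high cells numbered 288 in DOCA-salt and 96 in sham of hippocampus, and 161 in DOCA-salt and 138 in sham of cortex. Agt-high cells numbered 646 in DOCA-salt and 324 in sham of hippocampus, and 1995 in DOCA-salt and 1117 in sham of cortex. Free cells numbered 553 in DOCA-salt and 245 in sham of hippocampus, and 834 in DOCA-salt and 1037 in sham of cortex. Depth differed between the gates, with medians of 8664 to 10270 UMIs in Gfap-high cells, 5422 to 7232 in Agt-high cells and 949 to 4549 in free cells. The lowest of these medians, 949 UMIs, belonged to the free cells of hippocampus DOCA-salt.

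Aqp4 was higher in Gfap-high than in free cells in all 4 libraries. It stood at 840.0 CPM in Gfap-high against 455 CPM in free cells of hippocampus DOCA-salt, a ratio of 1.85 (1.67 to 2.04), and at 996 against 464 CPM in hippocampus sham, a ratio of 2.15 (1.90 to 2.43). In cortex the levels were 918 CPM in Gfap-high against 697 CPM in free cells of DOCA-salt, a ratio of 1.32 (1.23 to 1.41), and 1341 against 939.7 CPM in sham, a ratio of 1.43 (1.35 to 1.51). Within the largest astrocyte-like cluster alone the ratio was 0.986 in hippocampus DOCA-salt, 1.08 in cortex DOCA-salt and 0.971 in cortex sham. Without the shallow cluster it was 1.49 in DOCA-salt and 2.12 in sham of hippocampus, and 1.25 in DOCA-salt and 1.39 in sham of cortex.

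Mlc1 was higher in Gfap-high cells of hippocampus, at 594 against 401 CPM in free cells of DOCA-salt and 625 against 416 CPM in sham, ratios of 1.48 and 1.502 (1.31 to 1.73 in sham). In cortex its ratios were 1.01 and 1.19. Dtna and Hepacam were lower in Gfap-high cells of all 4 libraries, with ratios of 0.692 to 0.807 for Dtna and 0.796 to 0.890 for Hepacam; both turned above 1 in hippocampus DOCA-salt when each cell got equal weight, at 1.13 and 1.15. Past 1.5-fold were 1 of the 7 genes in hippocampus DOCA-salt (Aqp4), 2 in hippocampus sham (Aqp4 and Mlc1) and 0 in either cortex library. Without the shallow cluster the 1 gene past it in hippocampus DOCA-salt was Dtna, lower at 0.647, in place of Aqp4. With gates on thinned cells Gjb6 was past it in hippocampus sham, lower at 0.516. Over all genes the share past it was 29.7% in DOCA-salt and 32.2% in sham of hippocampus, and 13.6% in DOCA-salt and 20.2% in sham of cortex, and the members' counts lie near or below those shares.

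The Agt-high cells gave another order, with every gene but Dtna at a ratio to free cells above 1 in each library. Aqp4 had ratios of 1.503 in DOCA-salt and 1.49 in sham of hippocampus, and 1.16 and 1.07 in cortex. Those of Dag1 were 1.46 and 1.38 in hippocampus, and 1.08 and 1.08 in cortex. Mlc1 and Hepacam lay between 1.01 and 1.33. In hippocampus DOCA-salt, Gja1 stood at 2129.9 CPM in Agt-high against 1414 CPM in free cells, a ratio of 1.51, and Gjb6 at 798 against 494 CPM, a ratio of 1.61. In hippocampus sham the ratios were 1.48 for Gja1 and 1.57 for Gjb6, while in cortex they were 1.16 and 1.29 in DOCA-salt and 1.13 and 1.07 in sham. Past 1.5-fold were 3 genes in hippocampus DOCA-salt (Aqp4, Gja1 and Gjb6), 1 in hippocampus sham (Gjb6) and 0 in cortex. Over all genes the share was 21.2% in DOCA-salt and 17.3% in sham of hippocampus, and 9.41% in DOCA-salt and 7.11% in sham of cortex. Without the shallow cluster none of the 7 passed it in any library, and the hippocampus DOCA-salt ratios were 1.15 for Gja1 and 1.28 for Gjb6. Within the largest cluster alone those were 0.928 and 0.913. Dtna had ratios of Agt-high to free cells below 1 in each library, at 0.812 to 0.976; the highest, of hippocampus DOCA-salt, lay within counting error of 1 (0.899 to 1.06).

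**Figure D3:**
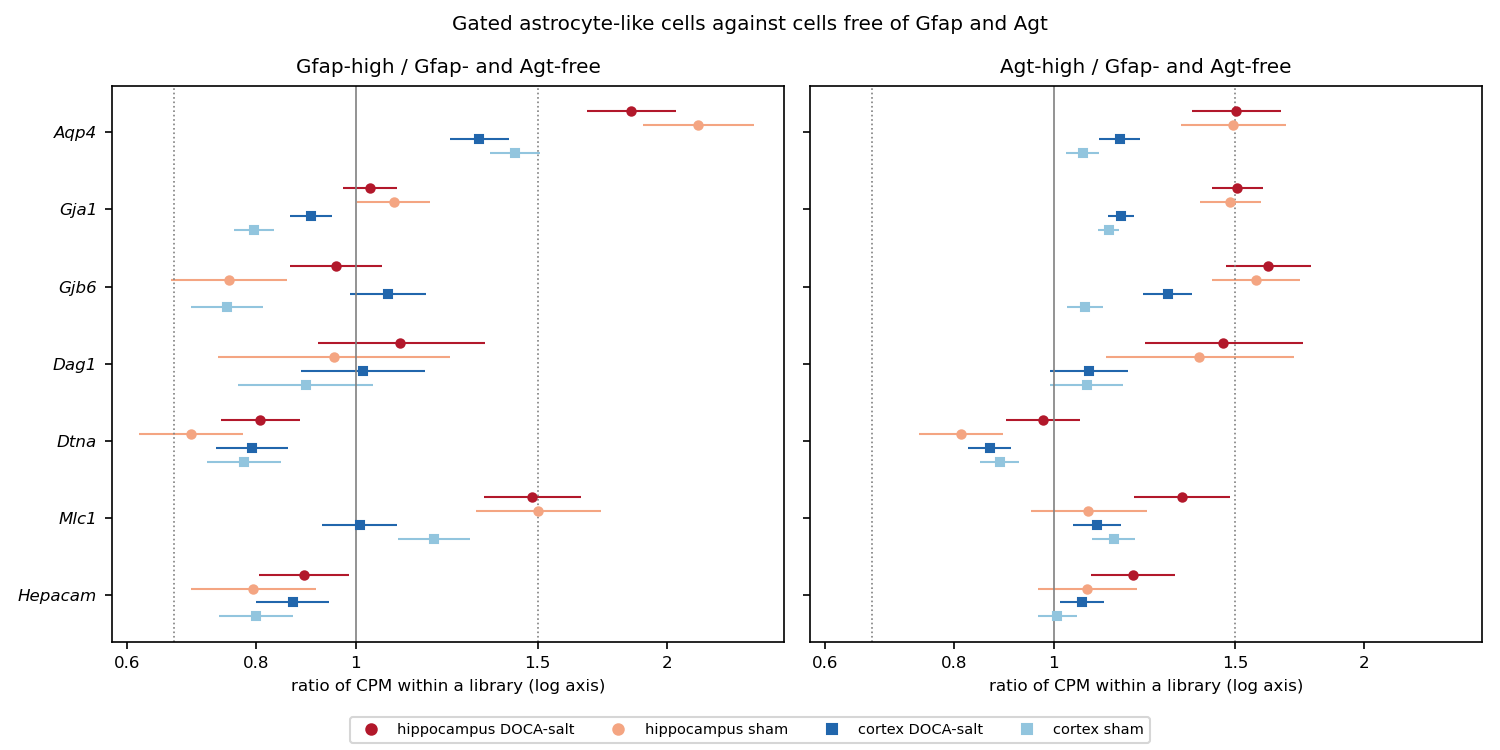
Ratio of the CPM level in Gfap-high cells (left panel) and Agt-high cells (right panel) to that in cells free of Gfap and Agt (horizontal axis, log scale) for the 7 genes in the 4 libraries; lines are 95% intervals of counting error, and dotted lines mark 1.5-fold. Aqp4 lies between 1.32 and 2.15 in Gfap-high cells, and Dtna lies below 1 in both panels and all libraries.

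At the top steps of Gfap the water channel and the connexins parted. The step of 3 to 5 Gfap UMIs held most Gfap-high cells of each library. Aqp4 stood there at 607 CPM in DOCA-salt and 779 CPM in sham of hippocampus. In cortex it stood there at 832 CPM in DOCA-salt and 965 CPM in sham. Only in hippocampus sham was its interval at this step clear of that at 0 Gfap UMIs. In cells with over 15 Gfap UMIs, Aqp4 stood at 2225 CPM in DOCA-salt and 1666 CPM in sham of hippocampus, and 1714 CPM in DOCA-salt and 2515 CPM in sham of cortex. In cells with 0 Gfap UMIs it stood at 602 CPM in DOCA-salt and 590.3 CPM in sham of hippocampus, and 775 CPM in DOCA-salt and 976 CPM in sham of cortex, below the top step in every library. Gja1 ran the other way, with 848 to 1187 CPM at over 15 Gfap UMIs, against 1746 to 2413 CPM at 0 Gfap UMIs. Gjb6 did as well, and stood at over 15 Gfap UMIs at 257 CPM in DOCA-salt and 146 CPM in sham of hippocampus, and 134 CPM in DOCA-salt and 151 CPM in sham of cortex. At 0 Gfap UMIs it stood at 708 CPM in DOCA-salt and 894 CPM in sham of hippocampus, and 585 CPM in DOCA-salt and 789.7 CPM in sham of cortex. Hepacam was lower at the top step as well, at 302 to 430.4 CPM against 587 to 671 CPM at 0, and Mlc1 was higher, at 590.1 to 820.5 CPM against 431 to 562 CPM. The step with over 15 Gfap UMIs held 30 cells in DOCA-salt and 11 cells in sham of hippocampus, and 15 cells in DOCA-salt and 22 cells in sham of cortex. Between 93.3% and 100% of them lay in 1 cluster, led by Myoc and Gfap. Cells of the top step had medians of 9890 to 12183 UMIs, against 3352 to 5839 UMIs in cells with 0 Gfap UMIs; after thinning, 93.3% to 100% of them held an Aqp4 UMI, against 64.3% to 83.8%. The step of 6 to 15 Gfap UMIs, which held 17 (sham of cortex) to 70 cells per library, gave Gjb6 at 384 to 504 CPM and Gja1 at 1081 to 1661 CPM, each below its level at 0 Gfap UMIs in the same library. There Aqp4 was above its level at 0 Gfap UMIs in hippocampus DOCA-salt, hippocampus sham and cortex sham, at 779, 1022 and 1565 CPM, while its 824 CPM in cortex DOCA-salt lay within counting error of the 775 CPM at 0.

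**Figure D4:**
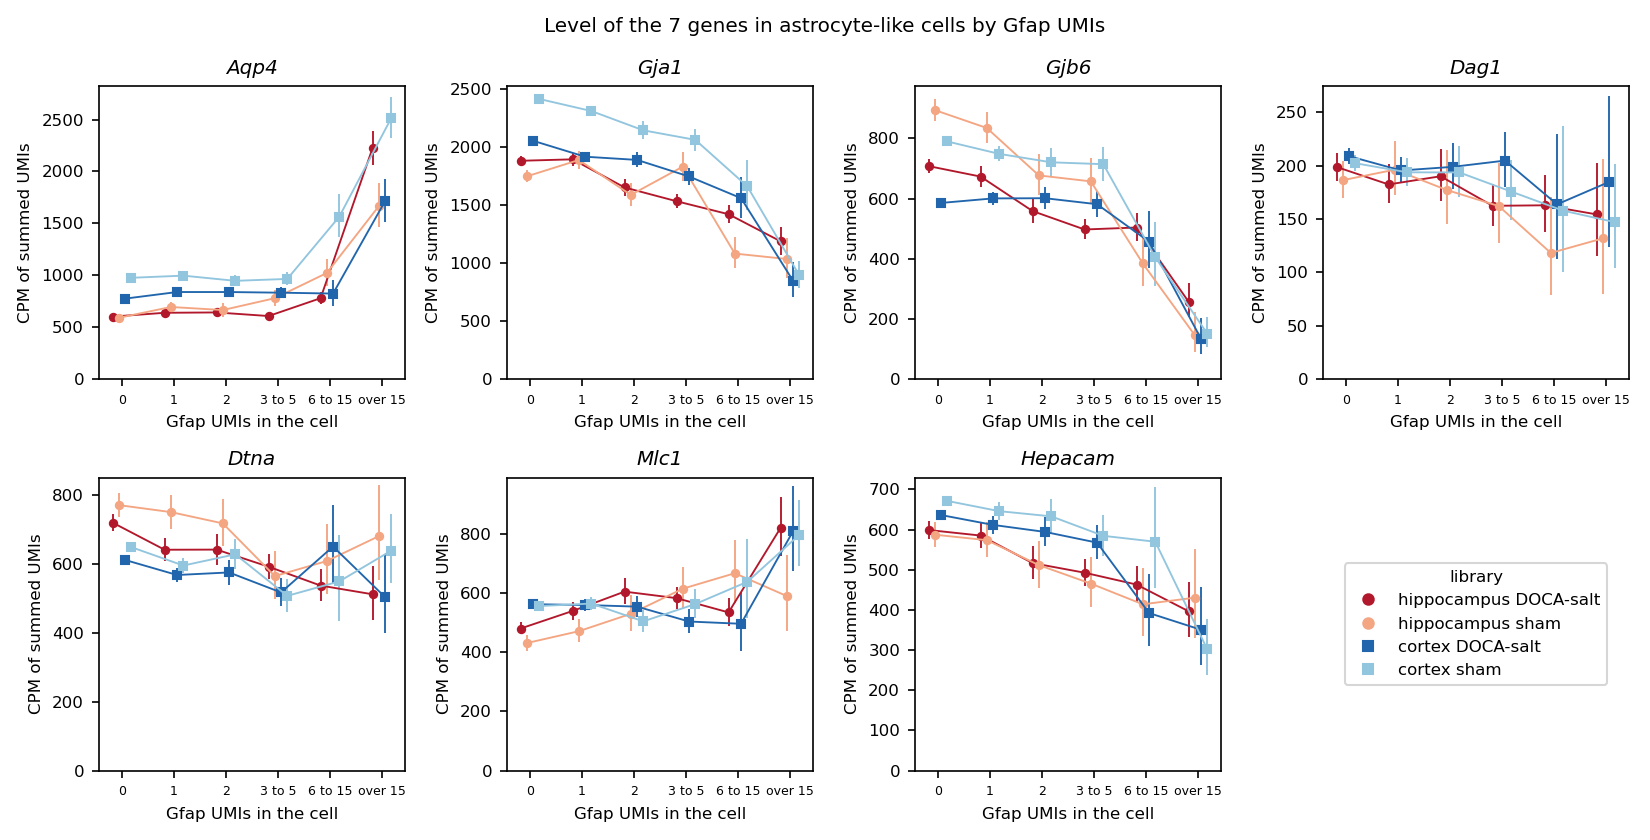
Level of the 7 genes (vertical axis, CPM of summed UMIs) in astrocyte-like cells by the number of Gfap UMIs in the cell (horizontal axis) and by library (colours and shapes); lines are 95% intervals of counting error. At over 15 Gfap UMIs, Aqp4 reaches 1666 to 2515 CPM and Gjb6 stands at 134 to 257 CPM; the step holds 11 to 30 cells per library.

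Within the gates, the lower Gjb6 level of the DOCA-salt libraries was seen among Agt-high and free cells of both tissues. Among Agt-high cells Gjb6 stood at 798 CPM in DOCA-salt against 1033 CPM in sham of hippocampus and 626 against 809.9 CPM in cortex, a ratio of 0.772 and 0.773. Among free cells the ratio was 0.752 (0.664 to 0.851) in hippocampus and 0.643 (0.606 to 0.682) in cortex, at 485 CPM in DOCA-salt against 755 CPM in sham. Among Gfap-high cells it was 0.954 (0.855 to 1.07) in hippocampus and 0.919 (0.831 to 1.02) in cortex, within counting error of 1. Gfap-high cells of hippocampus held 32.4 Gjb6 UMIs per 100 Gja1 UMIs in DOCA-salt against 33.3 in sham. Those of cortex held 31.92 against 31.81. This balance was lower in DOCA-salt among Agt-high and free cells of both tissues. Gjb6 in free cells of cortex was the 1 gene of the 7 past 1.5-fold in any gate and tissue. Of all genes in those cells 4.55% were past it lower and 11.9% in either direction. In the other gates 21.2% of all genes passed it among free cells of hippocampus, 19.4% and 15.3% among Gfap-high cells of hippocampus and cortex, 14.6% among Agt-high cells of hippocampus, and 8.7% higher and 3.25% lower among those of cortex.

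Aqp4 was lower in the cortex DOCA-salt library in every gate, at 918 CPM in DOCA-salt against 1341 CPM in sham among Gfap-high cells, a ratio of 0.685 (0.638 to 0.735). Its ratio was 0.806 (0.783 to 0.830) among Agt-high cells and 0.742 (0.706 to 0.780) among free cells of cortex. In hippocampus it was 0.844 (0.780 to 0.913) among Gfap-high cells, while Agt-high cells (0.987) and free cells (0.980) gave ratios within counting error of 1. Of the Gfap-high cells of cortex, 15 of 161 in DOCA-salt against 22 of 138 in sham held over 15 Gfap UMIs, where Aqp4 was highest; the part of that in the ratio was not tested. Mlc1 was higher in DOCA-salt among the Agt-high cells of hippocampus, at 533 CPM in DOCA-salt against 449.8 CPM in sham, a ratio of 1.19 (1.09 to 1.29), and lower among the Gfap-high cells of cortex, at a ratio of 0.863 (0.782 to 0.951). Gja1 in cortex had ratios of 0.916 (0.865 to 0.969), 0.829 and 0.807 among Gfap-high, Agt-high and free cells. Dag1 and Hepacam lay between 0.917 and 1.18 in every gate and tissue.

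The second comparison set hippocampus against cortex under the same title. The water channel and connexin 43 genes were lower in hippocampus, and connexin 30 and alpha-dystrobrevin were not. Aqp4 had a ratio of 0.847 (0.824 to 0.870) between the DOCA-salt libraries and 0.690 (0.666 to 0.715) between the sham libraries. Gja1 had ratios of 0.877 (0.862 to 0.892) and 0.736 (0.719 to 0.752). Gjb6 had ratios of 1.06 (1.03 to 1.09) and 1.03 (0.999 to 1.07), and Dtna of 1.10 (1.07 to 1.13) and 1.16 (1.12 to 1.204). Hepacam stood at 0.889 and 0.843, Mlc1 at 0.961 and 0.866, and Dag1 at 0.900 and 0.914. On the log2 scale the median of the 7 genes was -0.15 between the DOCA-salt libraries and -0.21 between the sham libraries, beside -0.20 and -0.41 for the 12 astrocyte markers and 0.01 and 0.02 for all genes. None of the 7 passed 1.5-fold, where 15.2% of 15220 genes did between the DOCA-salt libraries and 19.5% of 14347 genes between the sham libraries. Aqp4 passed it between the sham libraries under 4 of 11 alternatives, at a lowest ratio of 0.628.

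The tissue difference of Aqp4 and Gja1 was not the same in every gate, and depth differed as well. Free cells had medians of 949 UMIs in hippocampus and 3355 in cortex of the DOCA-salt libraries, and 2507 and 4549 of the sham libraries. The part of depth in these differences was not tested. Among free cells Aqp4 stood at 455 CPM in hippocampus against 697 CPM in cortex of the DOCA-salt libraries, a ratio of 0.652, and at 464 against 939.7 CPM in the sham libraries, a ratio of 0.494 (0.443 to 0.549). Among Agt-high cells the ratios were 0.846 and 0.691. Gja1 was level between the DOCA-salt libraries among Agt-high cells, at 1.02 (0.990 to 1.04). Between the sham libraries it stood there at 2028 CPM in hippocampus against 2529.6 CPM in cortex. Among free cells Gja1 stood at 1414 against 1806 CPM in the DOCA-salt libraries. In the sham libraries it stood there at 1368 against 2237 CPM, a ratio of 0.612 (0.574 to 0.651). Among Gfap-high cells Gja1 stood at 1459 against 1633 CPM in the DOCA-salt libraries and 1489 against 1783.5 CPM in the sham libraries. Gjb6 was higher in hippocampus among Agt-high cells, at 798 against 626 CPM in cortex of the DOCA-salt libraries and 1033 against 809.9 CPM of the sham libraries, ratios of 1.27 (1.22 to 1.33) and 1.27 (1.21 to 1.34). Past 1.5-fold among free cells were 1 gene (Aqp4) between the DOCA-salt libraries and 2 (Aqp4 and Gja1) between the sham libraries, beside 25.2% and 29.8% of all genes.

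The third comparison asked which other cell classes hold RNA of the 7 genes. In droplet data RNA set free from one cell type is counted in all others, so each level is given as a share of the astrocyte-like level in the same library, beside the same share for the 12 astrocyte markers. Read in this way, Aqp4, Gja1 and Gjb6 lay near the markers in oligodendrocyte-like, endothelial-like, pericyte-like and microglia-like cells. Dag1, Dtna, Hepacam and Mlc1 each stood above the median marker in all 4 libraries in at least 1 of these classes. Gja1 did not, but in hippocampus sham it lay slightly above it, at 2.45% in endothelial-like and 2.38% in pericyte-like cells. In ependymal-like cells 6 of the 7 genes stood above every marker.

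In microglia-like cells, the brain's resident macrophages, Aqp4 stood at 0.680% to 2.71% of the astrocyte-like level, Gja1 at 0.810% to 4.07% and Gjb6 at 1.03% to 4.40%, at or below the median marker in every library. In oligodendrocyte-like cells the ranges were 0.628% to 2.66% for Aqp4, 0.762% to 3.59% for Gja1 and 0.905% to 3.93% for Gjb6, again not above the median marker, which lay between 1.62% and 5.66%. Whether these levels hold more than free astrocyte RNA was not tested. Astrocyte-like cells held 89.2% to 95.2% of all Aqp4 UMIs of a library, 88.6% to 94.1% of Gja1 UMIs and 88.7% to 93.4% of Gjb6 UMIs.

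Hepacam, the GlialCAM gene, was the exception in oligodendrocyte-like cells. It stood there at 324 CPM in DOCA-salt and 332 CPM in sham of hippocampus, and 322 CPM in DOCA-salt and 337 CPM in sham of cortex. Of the astrocyte-like level this was 58.7% in DOCA-salt and 60.1% in sham of hippocampus, and 51.8% in DOCA-salt and 51.5% in sham of cortex. No astrocyte marker exceeded 19.0% in that class. After thinning, between 45.6% and 48.6% of oligodendrocyte-like cells held a Hepacam UMI in each library. The levels of the 4 libraries lay close together, with DOCA-salt to sham ratios of 0.978 (0.9499 to 1.01) in hippocampus and 0.954 (0.920 to 0.990) in cortex. The share of all Hepacam UMIs in oligodendrocyte-like cells was 52.8% in DOCA-salt and 73.6% in sham of hippocampus, and 24.5% in DOCA-salt and 28.3% in sham of cortex. The share in astrocyte-like cells was 40.8% in DOCA-salt and 19.4% in sham of hippocampus, and 70.3% in DOCA-salt and 66.6% in sham of cortex. Its partner gene Mlc1 stood at 1.81% to 6.13% in the same class. Dtna stood at 8.22% to 11.7% and Dag1 at 8.66% to 12.2% there, above the median marker in all 4 libraries and below the highest one.

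Dag1, for dystroglycan, was found most widely. In pericyte-like cells, the mural cells of capillaries, it stood at 154 CPM in DOCA-salt and 124 CPM in sham of hippocampus, and 149.7 CPM in DOCA-salt and 142 CPM in sham of cortex. These levels were 68.7% to 83.6% of the astrocyte-like level, above every marker, of which the highest lay between 38.1% and 54.8%. In smooth-muscle-like cells it stood at 49.4% to 81.5%, with 36 to 119 cells per library. Endothelial-like cells held 53.4 to 64.8 CPM, or 28.4% to 35.2%, and microglia-like cells 28.3 to 36.1 CPM, or 14.4% to 17.6%. The order from pericyte-like to endothelial-like to microglia-like cells held in each library without overlap of the intervals, whereas smooth-muscle-like and pericyte-like cells overlapped in each library. Cajal-Retzius-like cells of hippocampus stood at 32.5% in DOCA-salt and 32.4% in sham. The share of all Dag1 UMIs in astrocyte-like cells was 54.0% in DOCA-salt and 36.0% in sham of hippocampus, and 78.2% in DOCA-salt and 76.6% in sham of cortex.

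Ependymal-like cells, which line the ventricles, numbered 92 in DOCA-salt and 86 in sham of hippocampus; the 9 in DOCA-salt and 8 in sham of cortex were too few to describe. Mlc1 was as high in them as in astrocyte-like cells, at 576 CPM in DOCA-salt and 519 CPM in sham, or 107% (95.7 to 119) and 107% (95.4 to 120) of the astrocyte-like level. Aqp4 stood at 239.7 and 210.3 CPM, or 35.3% and 30.5%, and Gja1 at 295 and 217 CPM, or 16.96% and 12.6%. Dag1 stood at 42.1% and 42.2%, Hepacam at 27.5% and 32.2% and Dtna at 14.7% and 16.2%. Gjb6, at 3.00% and 2.76%, was the one gene below the median marker, which stood at 4.50% and 4.33%. The highest marker stood at 7.98% and 7.88%, below the share of each of the other 6 genes.

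Mlc1 stood above the median marker in vascular cells of both tissues, though not in these classes alone. Over libraries and ways of processing, it did so in 23 of 24 values in oligodendrocyte-like cells and 19 of 24 in microglia-like cells. It stood in pericyte-like cells at 25.4% in cortex DOCA-salt and 25.4% in cortex sham, and in endothelial-like cells at 22.2% and 18.9%, above the median marker (10.3% and 9.37% in pericyte-like cells) and below the highest. In hippocampus the shares in pericyte-like cells were 7.72% in DOCA-salt and 5.14% in sham, beside median markers of 5.02% and 2.26%, and those in endothelial-like cells 7.43% and 2.80%, beside 4.19% and 2.08%. Fibroblast-like cells of hippocampus held Gjb6 at 26.8% in DOCA-salt and 15.4% in sham, from 21 and 22 cells, and Gja1 at 18.7% and 4.38%. Choroid-plexus-like cells numbered 348 in hippocampus sham, where Dag1 stood at 18.4% and Dtna at 5.69%, and at most 2 in any other library.

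**Figure D5:**
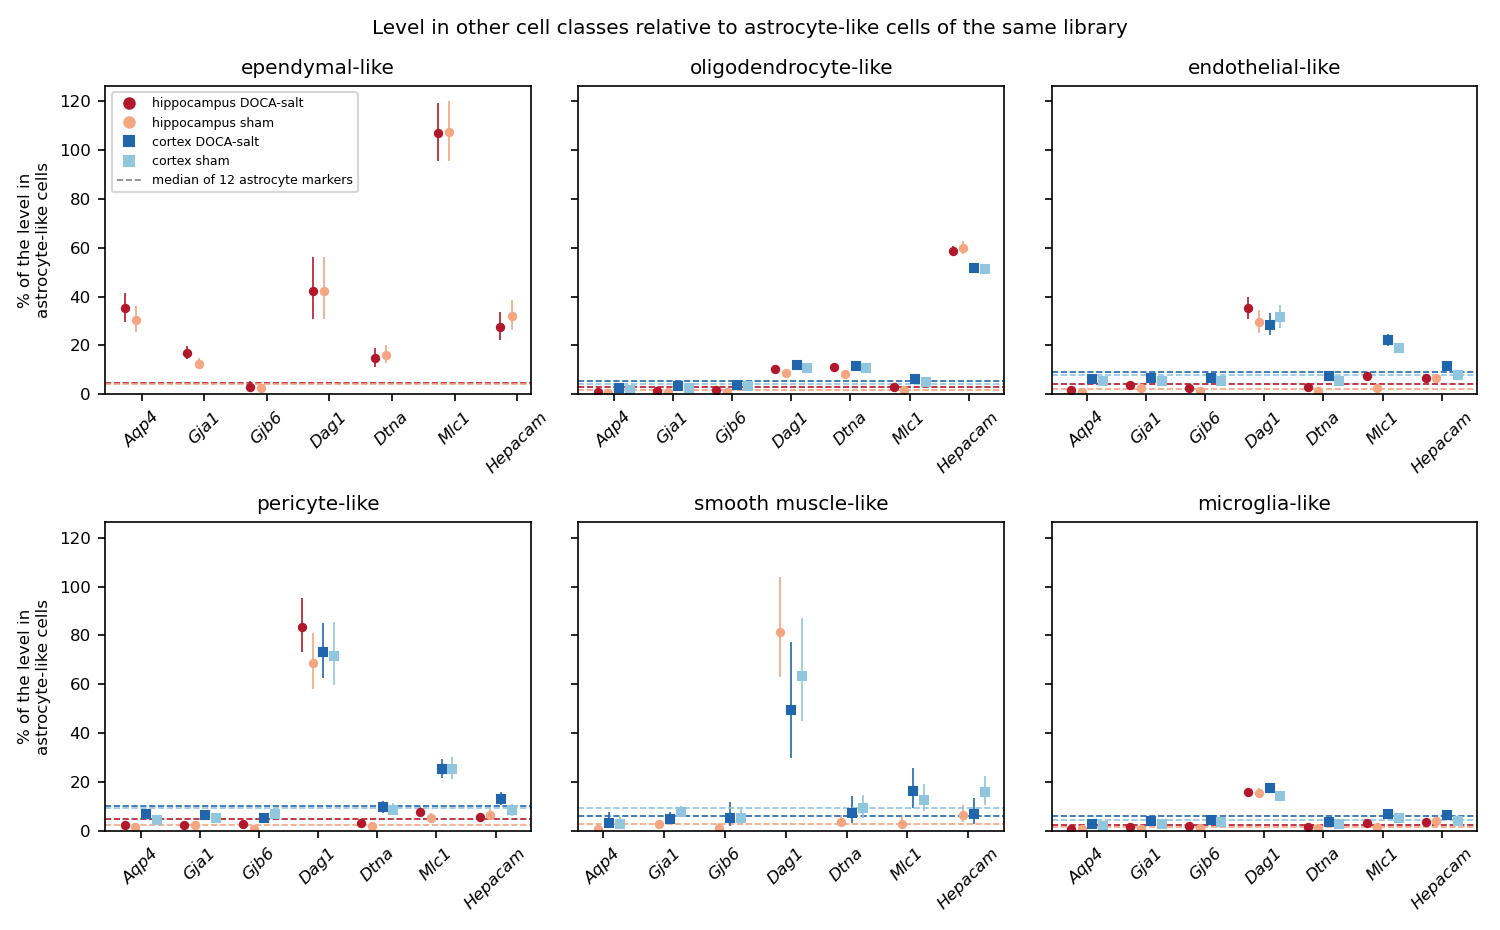
Level of the 7 genes in 6 other cell classes as a percentage of the astrocyte-like level in the same library (vertical axis); points are libraries with 95% intervals of counting error, and dashed lines give the median of 12 astrocyte markers treated the same way. Hepacam stands at 51.5% to 60.1% in oligodendrocyte-like cells, Dag1 at 68.7% to 83.6% in pericyte-like cells and Mlc1 at 107% in ependymal-like cells.

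In the other classes of hippocampus several of the genes were past 1.5-fold higher in DOCA-salt than in sham, together with the astrocyte markers. In endothelial-like cells these were Mlc1 (39.9 CPM in DOCA-salt against 13.6 CPM in sham, a ratio of 2.94), Dtna, Aqp4 and Gja1, or 4 of 7, beside 9.87% of all genes past it in that direction; 9 of the 12 astrocyte markers were past it too. In oligodendrocyte-like cells they were Gja1, Mlc1, Aqp4 and Gjb6, beside 10.1% of all genes. In pericyte-like cells they were Gjb6, Dtna and Mlc1, beside 9.74%, and in microglia-like cells Mlc1 and Gja1, beside 5.73%. The median astrocyte marker in microglia-like cells stood at 2.50% of its astrocyte-like level in DOCA-salt against 1.59% in sham, and in oligodendrocyte-like cells at 2.83% against 1.62%. Astrocyte-like cells made up 19.1% of the DOCA-salt library against 9.18% of the sham library, and the part of free astrocyte RNA in these ratios was not tested. Of the ependymal-like ratios none passed 1.5-fold (22.1% of all genes did), the highest being 1.36 (1.09 to 1.72) for Gja1.

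In cortex the same classes gave 0 of 7 genes past 1.5-fold in oligodendrocyte-like, endothelial-like and microglia-like cells, beside 12.6%, 12.5% and 11.4% of all genes, and 1 of 7 in pericyte-like cells, beside 17.2%. That gene was Gjb6, at 31.1 CPM in DOCA-salt against 52.7 CPM in sham. Dag1 in pericyte-like cells had ratios of 1.24 (1.02 to 1.51) in hippocampus and 1.06 (0.837 to 1.34) in cortex, and in endothelial-like cells of 1.21 (1.01 to 1.47) and 0.925 (0.746 to 1.15). Hepacam was higher in DOCA-salt among the microglia-like cells of cortex, at a ratio of 1.41 (1.24 to 1.62), and not among those of hippocampus, at 0.903 (0.763 to 1.07). Its level in microglia-like cells was 3.68% to 6.30% of the astrocyte-like level over the 4 libraries. The part of free astrocyte RNA in these cortex ratios was not tested.

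Summed over all cells of a library, 5 of the 7 genes were past 1.5-fold higher in DOCA-salt of hippocampus, beside 14.2% of all genes. Aqp4 stood at 126 CPM in DOCA-salt against 61.7 CPM in sham, a ratio of 2.04, Gja1 at 2.13, Mlc1 at 2.17, Gjb6 at 1.65 and Dtna at 1.53. Dag1 stood at 1.46 and Hepacam at 1.03. In such sums a larger share of astrocytes and more RNA per astrocyte cannot be told apart, and within astrocyte-like cells the same ratios lay between 0.784 and 1.11. In cortex the sums gave 0 of 7 past 1.5-fold, beside 12.2% of all genes, with ratios of 0.855 to 1.13.

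Genes whose pattern over classes was most like that of each member were found by the Pearson correlation of log2(CPM + 1) over 24 points, 6 classes in 4 libraries, among 15214 genes. The points share libraries and depth, so the correlations are descriptions. Aqp4 was most like Elovl2 (0.990), a fatty acid elongase gene, then Gpm6a and Nkain4. Nkain4 was also the gene most like Gja1 (0.990), and Plcd4, a phospholipase gene, the one most like Gjb6 (0.990). Dtna was most like Negr1 (0.984), Mlc1 most like Fabp7 (0.988), a fatty acid binding protein gene of astrocytes, and Hepacam most like Soga3 (0.990). Dag1 had the loosest match, with Dipk1b (0.961), Dbp (0.960) and Vcl (0.956). Among the 21 pairs of members the correlation was highest for Aqp4 with Gja1 (0.990) and lowest for Dag1 with Hepacam (0.241).

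Genes that act with the 7 were followed through 7 lists in astrocyte-like cells. In hippocampus 8.23% of all genes were past 1.5-fold higher in DOCA-salt and 4.98% past it lower, and in cortex 8.6% and 3.2%. Genes given here as past 1.5-fold are named because they passed it. Of 12 genes of the dystrophin complex with enough UMIs, 1 was past it higher and 1 lower in hippocampus (Cav1 at 1.72 and Sgcd at 0.594), and 2 higher in cortex (Sntb1 and Sntb2, beta-syntrophins, at 2.15 and 1.65). Kcnj10, for the potassium channel Kir4.1 of the endfeet, stood at 149.9 CPM in DOCA-salt against 173 CPM in sham of hippocampus, a ratio of 0.865 (0.797 to 0.939), and at 95.3 against 88.7 CPM in cortex, a ratio of 1.07 (1.01 to 1.14).

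Of the dystroglycan ligands, 2 of 12 were past 1.5-fold lower in hippocampus (Slit2 at 0.401 and Nrxn3 at 0.650) and 3 of 11 past it higher in cortex (Lama4, Egflam and Lama5). The laminin gene Lamb2 was higher in DOCA-salt in both tissues, at 1.22 (1.03 to 1.44) and 1.14 (1.05 to 1.25), and Lama2 lower in both, at 0.849 and 0.946. Of the 16 genes that glycosylate dystroglycan, 1 was past it higher in each tissue. Dpm2, which takes part in mannose donor synthesis, was lower in DOCA-salt of both tissues, at 0.779 and 0.822.

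Among the other connexins and pannexins, 5 of 6 were past 1.5-fold lower in hippocampus DOCA-salt and 0 of 8 in cortex. They included Gjc3, a connexin gene of oligodendrocytes, at 0.464, where the oligodendrocyte markers in the same cells summed to 2842 CPM in DOCA-salt against 5493 CPM in sham. Of 8 connexin partners none was past it in either tissue; Tjp1, for the scaffold ZO-1, was lower in both, at 0.858 (0.804 to 0.917) and 0.845 (0.813 to 0.878). Of the MLC1 and GlialCAM partners 1 of 8 was past it in hippocampus (Trpv4, lower, from 20 UMIs) and 0 of 8 in cortex. Of the other aquaporins 0 of 2 were past it in hippocampus and 1 of 4 in cortex (Aqp1, from 22 UMIs). Each list's median log2 ratio lay between -0.93, for the other connexins and pannexins in hippocampus, and 0.31, for the dystroglycan ligands in cortex.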

How the data were processed

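Single-cell suspensions of hippocampus and sensory cortex were prepared with the SeekOne DD 3′ kit, per the labels' protocols, and the authors deposited raw UMI counts as 1 matrix of 32285 genes for each of the 4 libraries. Tools named, per the submitters' processing notes, are Seurat, Subread, STAR and fastp with the build GRCm38; versions, strand setting and intron counting are not given in the sources used here. Groups follow the sample titles.

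Barcodes under 300 genes or over 20% mitochondrial UMIs were left out of the deposited counts, and doublets called by Scrublet (expected rate 0.08) were removed. Each cell was scaled to 10000, and 2000 variable genes without the 7 members, 30 principal components and 15 neighbours gave Leiden clusters (resolution 1, sub-clusters 0.5; scanpy 1.11.5, igraph 0.11.9). Clusters were named from 21 marker lists. UMIs were summed per class and library and given as CPM. Ratios have exact 95% conditional intervals (scipy 1.17.1) that cover counting error only. A gene was compared with at least 20 UMIs in both groups together and counted past 1.5-fold in either direction. No test was made, with 1 library per group. Where cells were thinned, each was drawn down to 2000 UMIs and shallower cells were left out. All 7 members are named; of related lists, genes past the fold, Kcnj10 and those whose interval lay farthest from 1 in the weaker tissue; some genes that this rule names are not reported here. The ratio code was tested on simulated data. Gene positions come from GENCODE vM21, which matched 32158 of the 32285 genes. Members and lists were chosen with earlier results of these data known. Alternatives tried were other filters, gates, weights and scalings.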

Additional observations from a re-analysis of the deposited data

Results flagged for a closer look

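Some ratios of DOCA-salt to sham lay on opposite sides of 1 in hippocampus and cortex, with both intervals clear of 1; the difference between the tissues itself was not tested. Gja1 among Agt-high cells stood at 2129.9 CPM in DOCA-salt against 2028 CPM in sham of hippocampus, a ratio of 1.05 (1.01 to 1.09), and at 2098 against 2529.6 CPM in cortex, a ratio of 0.829 (0.814 to 0.844). Gjb6 in pericyte-like cells had a ratio of 2.47 (1.17 to 5.66) in hippocampus, from 30 UMIs in DOCA-salt against 10 in sham, and of 0.590 (0.374 to 0.925) in cortex, from 37 UMIs in DOCA-salt against 48 in sham. At these counts Gjb6 stood below the median astrocyte marker in pericyte-like cells of all 4 libraries, and the part of free astrocyte RNA was not tested. Every ratio here rests on 1 library per group.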

How the results depend on the processing

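No paired analysis was possible because the labels give no replicate numbers; a fit over both tissues with tissue as a block, which leaves 1 residual degree of freedom, was not made. Of 798 values of single genes under other processing, 86 fell on the other side of 1: 57 of them had an interval that spanned 1 to begin with, and the other 29, whose interval had been clear of 1, are given here. Of 114 counts of members past 1.5-fold, 87 stayed within 1.5 times and 27 moved; a count that stayed can hold other genes, as Dtna (0.647) in place of Aqp4 for Gfap-high to free cells of hippocampus DOCA-salt without the shallow cluster. No cause of a crossing or a move was tested. The settings without the shallow cluster, with the largest cluster alone and without clusters led by long genes were chosen after seeing the data. Of the 29, with the largest cluster alone these crossed: Dtna of DOCA-salt to sham in hippocampus (1.03); hippocampus to cortex, DOCA-salt, for Gja1 (1.06), Dag1 (1.03) and Mlc1 (1.02); Gfap-high to free for Aqp4 in hippocampus DOCA-salt (0.986) and cortex sham (0.971) and for Dtna in hippocampus DOCA-salt (1.003); Agt-high to free in hippocampus DOCA-salt for Aqp4 (0.946), Gja1 (0.928), Gjb6 (0.913), Dag1 (0.933) and Hepacam (0.822), in hippocampus sham for Gjb6 (0.971), in cortex DOCA-salt for Gja1 (0.9995) and Hepacam (0.992), and in cortex sham for Gjb6 (0.977). Without clusters led by long genes, Dtna crossed 1 for DOCA-salt to sham in cortex (1.01), Gfap-high to free in hippocampus DOCA-salt (1.11) and Agt-high to free in cortex DOCA-salt (1.0003) and sham (1.02), and Gjb6 did for hippocampus to cortex, DOCA-salt (0.993). With equal weight per cell, Gjb6 crossed 1 for the last contrast (0.967), and Dtna (1.13) and Hepacam (1.15) for Gfap-high to free in hippocampus DOCA-salt. Gates on thinned cells turned Gja1 in Gfap-high cells of hippocampus sham (0.748), and in Agt-high cells Mlc1 of hippocampus DOCA-salt (0.992) and Dtna of cortex DOCA-salt (1.001). Stricter gates turned the same Gja1 ratio (0.891), and keeping doublets turned Dtna in Agt-high cells of hippocampus sham (1.04). Between hippocampus and cortex sham libraries, 1 member passed 1.5-fold in place of 0 under cell-by-cell gating, thinning, equal weight and TMM scaling. For Gfap-high to free cells the count was 0 under cell-by-cell gating and in the largest cluster, 2 with doublets kept and 4 under equal weight in hippocampus DOCA-salt; 1 under equal weight in hippocampus sham; 1 under stricter gates in cortex DOCA-salt; and 3 under stricter and 2 under thinned gates in cortex sham. For Agt-high to free cells it was 0 under cell-by-cell or thinned gates, without the shallow cluster and in the largest cluster for both hippocampus libraries. In hippocampus DOCA-salt it was 1 under stricter filters and 6 under equal weight; in hippocampus sham 4 with doublets kept, 3 under equal weight, 2 under stricter gates and 2 without clusters led by long genes; in cortex DOCA-salt 1 under equal weight. Gfap-high cells of hippocampus sham gave no value under cell-by-cell gating or in the largest cluster, with fewer than 20 cells. Depth limits the free cells of hippocampus DOCA-salt most, at a median of 949 UMIs.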

Other observations

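The 7 genes were also read cell by cell. With each astrocyte-like cell thinned to 2000 UMIs, the median cell held UMIs of 5 of the 7 genes in every library, and 55.1% of cells in hippocampus DOCA-salt, 54.5% in hippocampus sham, 61.4% in cortex DOCA-salt and 67.0% in cortex sham held 5 or more. All 7 were found together in 4.87% to 6.75% of cells. Shallower cells left out numbered 555 in DOCA-salt and 167 in sham of hippocampus, and 494 in DOCA-salt and 397 in sham of cortex.

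The genes varied among the astrocyte-like clusters, which were formed without them. In the cluster led by Gpc5, Lsamp and Ntm, Dtna stood at 892 CPM in hippocampus DOCA-salt, 954 in hippocampus sham, 827 in cortex DOCA-salt and 796 in cortex sham. In a small cluster led by Kcnd2 and Trpm3, of 22 to 51 cells per library, Dtna reached 1460 to 1770 CPM, while Gja1 stood at 579 to 911 CPM. In the cluster led by Gria1, Agt and Kcnd2, Gjb6 stood at 913 CPM in DOCA-salt and 1323 CPM in sham of hippocampus, and 779 CPM in DOCA-salt and 1179 CPM in sham of cortex. In the cluster led by Myoc and Gfap, Aqp4 stood at 764 CPM in DOCA-salt and 914 CPM in sham of hippocampus, and 1125 CPM in DOCA-salt and 1826 CPM in sham of cortex. Gjb6 stood there at 440 CPM in DOCA-salt and 496 CPM in sham of hippocampus, and 216 CPM in DOCA-salt and 231 CPM in sham of cortex.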
